A study of Mus musculus with 12 samples.

Results

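The adult forebrain of Shank3 knock-out mice was compared with that of wild-type mice, gene by gene and by gene class. The libraries were chosen by their labels, as the 6 of 12 libraries in the series that were made at postnatal day 60 (P60), and no library made at postnatal day 25 was used. Of these, 3 libraries came from male C57BL/6J mice labelled knock-out (KO) and 3 from male C57BL/6J mice labelled wild-type (WT). Total RNA of the forebrain was sequenced. The olfactory bulb had been left out of the tissue. KO mice were homozygous for a germline deletion of Shank3 exons 14–16, and each library was taken to be 1 mouse. No transgene, Cre or drug was part of either group. The labels give replicate numbers but no litter, cage or sequencing batch. The limma p-values given below rest on the spread between these 3 mice per group, whatever its source. They also borrow from the spread of other genes at like levels.

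Shank3 is a scaffold protein of the postsynaptic density, the protein layer under the membrane of excitatory synapses. It links glutamate receptor complexes through partners such as SAPAP and Homer to the actin cytoskeleton, and its PDZ domain binds the SAPAP proteins. Loss of SHANK3 in humans is a known cause of Phelan-McDermid syndrome and is associated with autism. Shank1 and Shank2 are its close relatives and share most of its domains.

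The exons that define the KO allele are shown because they are what the mutant mice lack. In transcript Shank3-201, which has 22 exons on the plus strand of chromosome 15 (GENCODE M21, assembly GRCm38), the exons numbered 14, 15 and 16 lie at chr15:89531626-89531708, chr15:89532095-89532219 and chr15:89532329-89532461. All 3 are coding, and this stretch of the gene encodes the PDZ domain. Whether the study's exon numbers follow this transcript was not stated in the sources used here. In the lines below, capitals mark the bases of the 3 exons and lower case marks the 20 bases of exon 13 or exon 17 that adjoin them in the spliced transcript, read 5′ to 3′.
exon 14: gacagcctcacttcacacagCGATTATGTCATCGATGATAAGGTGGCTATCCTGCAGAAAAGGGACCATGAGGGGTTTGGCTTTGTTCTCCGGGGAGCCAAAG
exon 15: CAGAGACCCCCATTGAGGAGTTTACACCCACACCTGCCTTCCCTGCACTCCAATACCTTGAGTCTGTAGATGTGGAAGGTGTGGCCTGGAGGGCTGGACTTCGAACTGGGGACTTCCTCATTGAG
exon 16: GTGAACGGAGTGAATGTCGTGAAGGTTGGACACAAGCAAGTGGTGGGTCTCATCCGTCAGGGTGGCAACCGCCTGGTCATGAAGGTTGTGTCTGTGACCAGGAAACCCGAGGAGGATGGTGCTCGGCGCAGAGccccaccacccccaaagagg
The exons are 83, 125 and 133 bases long. Together they make 341 bases, which is 4.78% of the 7131 bases of the transcript and leaves a remainder of 2 when divided by the 3 bases of a codon. Of the 9 annotated Shank3 transcripts, 7 hold all 3 exons. The deposited table gives 1 value per gene, summed over transcripts, so it cannot show the missing exons themselves.

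Values are normalised counts as the authors deposited them, on the scale of their DESeq2 size correction. A gene was tested where its mean over the 6 libraries was at least 10, which 17610 of 19268 genes met. The log2 fold change (KO against WT) was computed on log2(value + 1), which understates the change of genes with low values, and is given with its standard error (SE). A gene was called differentially expressed (DEG) at an adjusted p under 0.05, by limma with Benjamini-Hochberg adjustment over all genes tested.

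The libraries were alike in size, with summed normalised values from 98.98% to 100.6% of their mean and 19183 to 19220 genes above 0. The Pearson correlation across genes was from 0.984 to 0.988 between libraries of the same genotype and from 0.984 to 0.989 between libraries of different genotypes, so genotype did not set the libraries apart. The forebrain label was borne out by its identity genes, all 14 of which were measured. Tbr1, a transcription factor of cortical projection neurons, had 2555, 2749 and 2777 normalised counts in KO libraries and 2465, 2644 and 2761 in WT libraries. Markers of cerebellum and hindbrain were not evenly spread. Gabra6, a GABA-A receptor subunit of cerebellar granule cells, had 68.5, 4.40 and 0 normalised counts in KO replicates 1, 2 and 3 and 0, 221 and 1.11 in WT replicates 1, 2 and 3. Summed over the 9 such markers tested, the level was 1018, 583 and 437 in KO libraries and 516, 2143 and 484 in WT libraries, so WT replicate 2 and KO replicate 1 stood above the other 4. Counts of genes that passed the test are therefore also given without these 2 libraries.

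Shank3 (ENSMUSG00000022623, chr15:89499623-89560261, plus strand) was the 1 DEG. It had 5186, 4535 and 5021 normalised counts in the KO libraries and 10310, 8936 and 10142 in the WT libraries. Every KO library lay far below every WT library, and the lowest WT value was well above the highest KO value. The means were 4914 ± 339 in KO (SD, n = 3) and 9796 ± 749 in WT (SD, n = 3), which puts KO at 50.2% of WT. The log2 fold change was -0.99 ± 0.07 (SE), with a 95% interval from -1.15 to -0.84 and an adjusted p of 0.0022 by limma. The exact two-sided permutation test over the 6 libraries gave p = 0.1, the smallest value that 3 against 3 libraries can give. Without KO replicate 1 and WT replicate 2 the log2 fold change was -1.10 (adjusted p = 0.00263 by limma). The call depended on the variance model, since without the intensity trend in limma the fold change was the same and the adjusted p was 0.185.

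Its relatives did not pass the test. Shank1 (ENSMUSG00000038738) had 20024, 17635 and 19410 normalised counts in KO and 19754, 17178 and 20465 in WT, a log2 fold change of -0.01 ± 0.07 (SE) with a 95% interval from -0.17 to 0.16. Shank2 (ENSMUSG00000037541) had 7909, 6532 and 8114 in KO and 8375, 6419 and 8234 in WT, a log2 fold change of -0.03 ± 0.11 (SE) with a 95% interval from -0.28 to 0.22. The KO and WT libraries of both genes overlapped, and replicate 2 was the lowest of its group in each genotype for all 3 Shank genes.

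**Figure D1:**
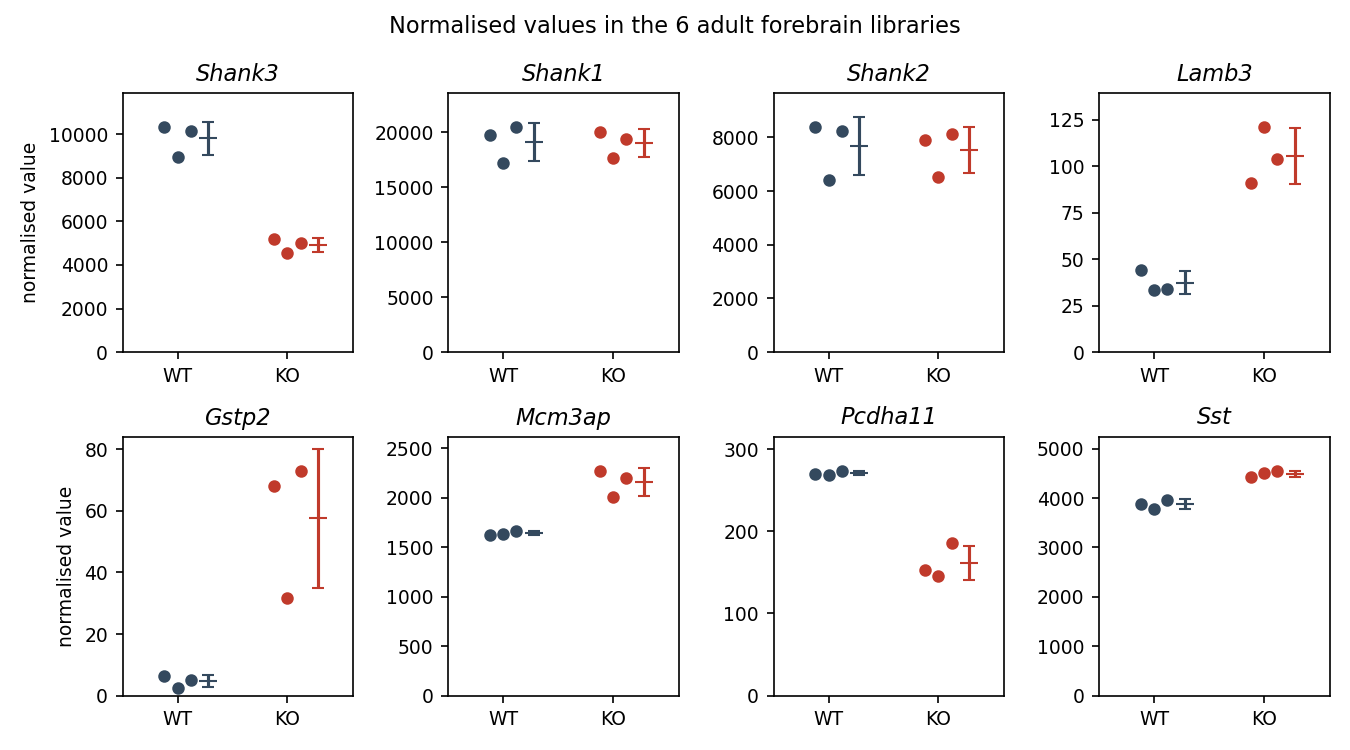
Normalised values (y axes, from 0) of 8 genes in the WT (grey, left) and KO (red, right) libraries. Each point is 1 library in the order of its replicate number, and the bar beside the points is the mean ± SD (n = 3). Shank3, Lamb3, Gstp2, Mcm3ap, Pcdha11 and Sst did not overlap between genotypes, Shank1 and Shank2 did, and Shank3 was the 1 gene of the 8 that passed the adjusted threshold.

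Genes beside Shank3 were examined because a targeted allele can touch its neighbours. None of the 38 tested genes that lie at least in part within 1 Mb of Shank3 was a DEG, and none reached an unadjusted p under 0.05. Their median log2 fold change was -0.01, and 15 of 38 were above 0, beside 50.1% of all genes tested. Mapk8ip2, a scaffold of the JNK pathway and the third gene before Shank3, had 9951, 10388 and 10419 normalised counts in KO and 10330, 10680 and 10525 in WT. Its log2 fold change was -0.04 ± 0.04 (SE), which is within the spread of the libraries. Arsa, a lysosomal sulfatase, C230037L18Rik, an antisense transcript that overlaps Arsa, Acr, the acrosomal protease acrosin, the small GTPase Rabl2 and the synaptotagmin Syt10 had log2 fold changes of -0.03, 0.06, -0.11, -0.05 and -0.08, and none was larger than its spread. Gm15609, a long non-coding RNA annotated inside the Shank3 gene, was singled out after its values were seen: it had 34.8, 41.1 and 53.5 in KO and 36.9, 49.7 and 39.9 in WT, which overlap.

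**Figure D2:**
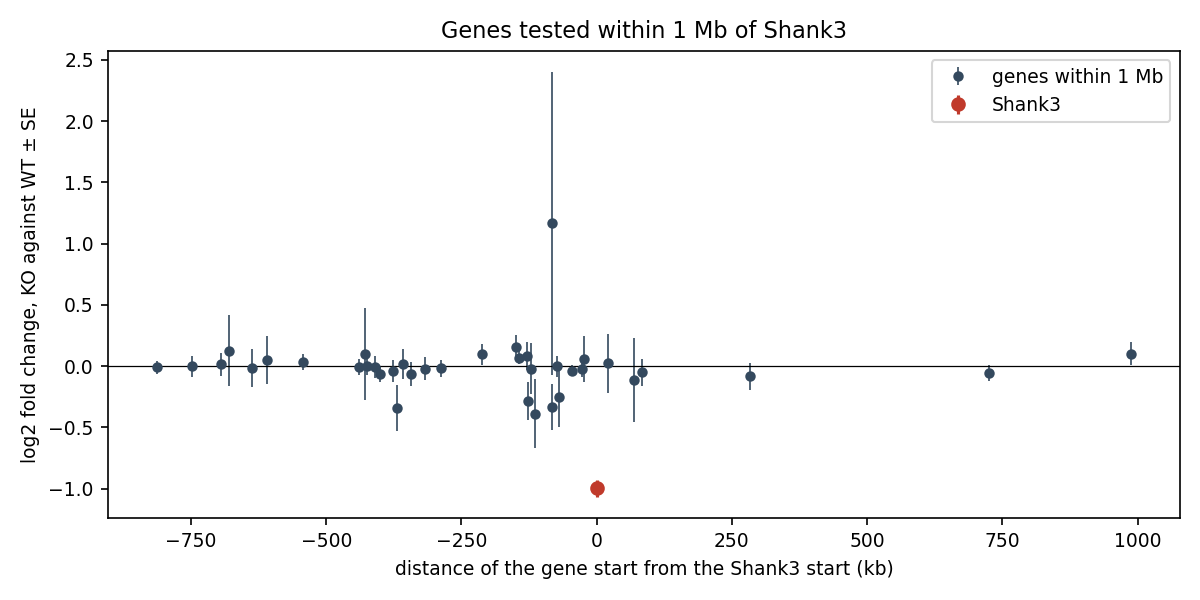
Log2 fold change (KO against WT, y axis, bars ± SE) of Shank3 (red) and of the 38 genes tested within 1 Mb (grey) against the distance of their starts from the Shank3 start in kb (x axis). Shank3 stands alone at -0.99; the point at 1.16 with the long bar is Gm44502, whose values ranged from 0 to 41.2.

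Across all 17610 genes tested, 1 gene (0.00568%) was a DEG, with 0 (0%) higher and 1 (0.00568%) lower in KO. Before adjustment, 227 genes (1.29%) were higher and 213 (1.21%) lower in KO at p under 0.05, together 440 (2.5%). A share of 0.05 of the 17610 genes is 880. Over the alternatives tried the count went from 320 without KO replicate 1 to 1017, on both sides of 880, and it was 834 without KO replicate 3 and 675 with sample quality weights. Without KO replicate 1 and WT replicate 2 there were 515, and the DEGs were then 3, Shank3 with Fam205a2 and Sgk1, both named after their values were seen. Fam205a2 was listed at 0 in KO replicate 1, at 159 and 187 in the other KO libraries and at 0 in all 3 WT libraries. Sgk1, a kinase induced by stress and steroids, had 1220, 2391 and 2363 in KO and 1339, 4368 and 1396 in WT. Over the 6 libraries these overlap, with a log2 fold change of -0.08 ± 0.43 (SE). In the libraries kept, KO had 2391 and 2363 and WT 1339 and 1396, so there KO was higher. KO and WT values did not overlap in 1372 genes (7.79%), with 733 (4.16%) higher and 639 (3.63%) lower in KO. The median SE of a log2 fold change was 0.10, and it went from 0.33 in the fifth of genes with the lowest levels to 0.056 in the fifth with the highest, so that differences of highly expressed genes were measured more finely. A log2 fold change beyond 1 in either direction was seen in 108 genes, 62 higher and 46 lower, none of them a DEG. Only 6 of the 108 had a mean of at least 100, and all 6 carried identifier-like symbols.

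**Figure D3:**
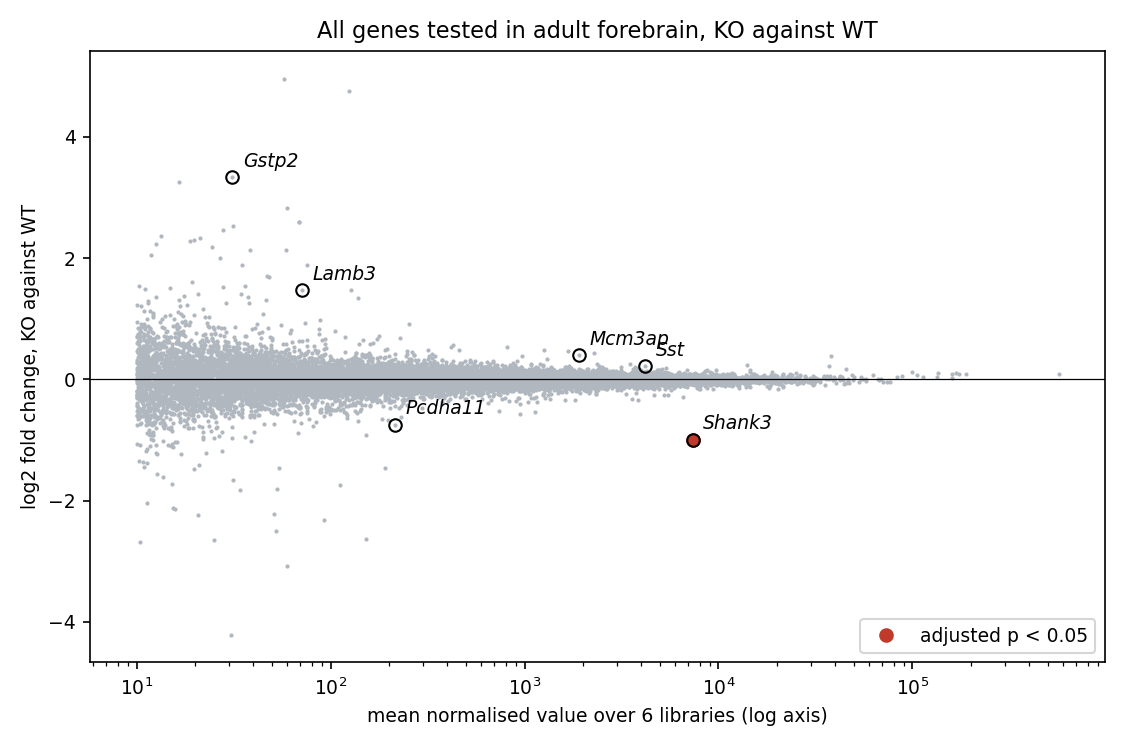
Log2 fold change (KO against WT, y axis) against the mean normalised value over the 6 libraries (x axis, log scale) for the 17610 genes tested. The spread narrows from left to right, Shank3 (red) is the 1 gene past the adjusted threshold, and circles mark 5 of the genes with the smallest p, none of which passed it.

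After Shank3, 5 genes had adjusted p-values under 0.5 by limma, and none passed the threshold. One of them, Gm16551, is a non-coding transcript with an identifier-like symbol (adjusted p = 0.467 by limma), and the other four code for proteins. Lamb3 (ENSMUSG00000026639), the laminin beta 3 chain of epithelial basement membranes, had 91.0, 121 and 104 normalised counts in KO and 44.4, 33.7 and 34.3 in WT. Every KO library lay above every WT library, and the fitted difference was 1.47 ± 0.20 on the log2 scale (SE, adjusted p = 0.19 by limma). Of the 11 laminins 6 were above 0 with a median of 0.02, and 1 was higher and 1 lower without overlap. The other 10 laminin genes were from -0.19 to 0.07, with Lamb2 the lowest at -0.19 ± 0.09 (SE), and Lama3, the alpha chain that Lamb3 joins in a trimer, was at 0.02.

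Gstp2 (ENSMUSG00000038155), a glutathione S-transferase of the pi class, had 68.2, 31.7 and 73.0 normalised counts in KO and 6.42, 2.62 and 5.15 in WT. The groups were well apart at a low level, with a log2 fold change of 3.33 ± 0.43 (SE, adjusted p = 0.19 by limma). Its neighbour Gstp1 (ENSMUSG00000060803), the main pi-class enzyme, had 2996, 3089 and 2880 in KO and 3098, 2939 and 2865 in WT, a log2 fold change of 0.01 ± 0.05 (SE). The first 60 coding bases of the pair, the stretch of this length with the most differences, are shown to make plain how alike they are, with the bases that differ in capitals. They span exons 1 to 3 on the minus strand of chromosome 19, within chr19:4037374-4037863 for Gstp1 and chr19:4041668-4042165 for Gstp2.
Gstp1: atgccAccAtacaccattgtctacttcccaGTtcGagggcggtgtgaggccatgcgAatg
Gstp2: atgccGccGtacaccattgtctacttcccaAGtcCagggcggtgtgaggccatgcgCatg
The coding sequences differ at 12 of 633 bases, of which 6 are in this window, and share an unbroken run of 303 bases. Of the 31-base words of the Gstp2 transcripts, 54.8% also occur in Gstp1, so a read can fit both genes. Summed over both, the values were 3064, 3121 and 2953 in KO and 3104, 2941 and 2870 in WT. The sums overlapped, with a log2 fold change of 0.04 and an exact two-sided permutation p of 0.4 over the 3 and 3 libraries. The mean of Gstp2 alone was 57.6 in KO and 4.73 in WT. Both are below the SD of the sums, 85.5 in KO and 120 in WT (n = 3). The sums thus follow Gstp1 and cannot show whether reads moved between the 2 genes, which was not tested.

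Mcm3ap (ENSMUSG00000001150), which encodes the mRNA export factor GANP, had 2274, 2004 and 2203 normalised counts in KO and 1626, 1634 and 1664 in WT. All KO libraries were above all WT libraries, with a log2 fold change of 0.39 ± 0.06 (SE, adjusted p = 0.467 by limma). Pcdha11 (ENSMUSG00000007440), a clustered protocadherin of neuronal cell recognition, had 153, 146 and 185 in KO and 269, 269 and 274 in WT, a log2 fold change of -0.75 ± 0.12 (SE, adjusted p = 0.467 by limma). A second gene record with the same symbol (ENSMUSG00000102206) had 187, 202 and 223 in KO and 241, 155 and 259 in WT, and 60% of the 31-base words of the first record occur in it. Protocadherin alpha genes share their last exons, so the division of reads between them is uncertain. Over the 13 genes of the cluster tested, the median log2 fold change was -0.05, 5 were above 0, and 0 were higher and 1 lower without overlap.

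The remaining genes with the smallest p-values each had an adjusted p of 0.9995 by limma, and none can be told from the spread over all genes. Among those with higher values in KO, Sst, the peptide somatostatin of a class of GABA interneurons, had 4417, 4498 and 4553 in KO and 3888, 3772 and 3964 in WT. Its groups did not overlap and the log2 fold change was 0.21 ± 0.05 (SE). Krt10, a keratin, Ppp1r15a, a regulatory subunit that directs eIF2alpha dephosphorylation, Hbb-bt, an adult beta globin, Taf8, a TFIID subunit, and Igf2bp2, an mRNA-binding protein, had log2 fold changes of 0.58, 0.56, 0.53, 0.31 and 0.85. All 5 had non-overlapping groups, which follows largely from choosing genes by their p. Ccdc40, a protein needed to build the inner arms of motile cilia, had 102, 87.0 and 165 in KO and 47.0, 74.2 and 54.4 in WT, with a log2 fold change of 0.97 ± 0.26 (SE).

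Among those with lower values in KO, Ppip5k2, an inositol pyrophosphate kinase, had 995, 1003 and 1013 in KO and 1214, 1255 and 1238 in WT. Its replicates were tight and apart, with a log2 fold change of -0.30 ± 0.06 (SE). Mrpl19, a mitochondrial ribosomal protein, Hpgds, a prostaglandin D synthase of microglia and macrophages, Mdc1, a DNA damage mediator, Fbxl2, an F-box protein, and Atp8a2, a neuronal phospholipid flippase, had log2 fold changes of -0.41, -0.62, -0.31, -0.22 and -0.33. None of these 5 overlapped between genotypes, which again follows largely from that choice.

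Rpl10, a protein of the large ribosomal subunit, had 855, 723 and 693 normalised counts in KO and 922, 1243 and 1230 in WT, a log2 fold change of -0.57 ± 0.13 (SE). Its retrogene Rpl10-ps3, annotated as protein-coding on chromosome 9, had 3848, 3662 and 3903 in KO and 3440, 3136 and 3029 in WT, a log2 fold change of 0.25 ± 0.06 (SE). The members of the pair thus lay on opposite sides of 0. Their coding sequences of 645 bases are identical, and 96.2% of the 31-base words of Rpl10-ps3 occur in Rpl10, so no sequence of the coding part can tell their reads apart. The summed values were 4703, 4385 and 4596 in KO and 4363, 4379 and 4259 in WT, with a log2 fold change of 0.07 and an exact two-sided permutation p of 0.1 over the 3 and 3 libraries, the smallest possible. The direction for Rpl10 alone is therefore opposite to that of the sum.

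Gene classes were then described with 39 lists that together hold 1117 genes, none of which was a DEG. For each list the text gives how many of its tested members were above 0, the median log2 fold change (all genes tested: 50.1% above 0, median 0.00013) and how many members had groups that did not overlap (all genes tested: 7.79%, with 4.16% higher and 3.63% lower in KO). In whole tissue, fewer cells of a type and less RNA per cell cannot be told apart.

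**Figure D4:**
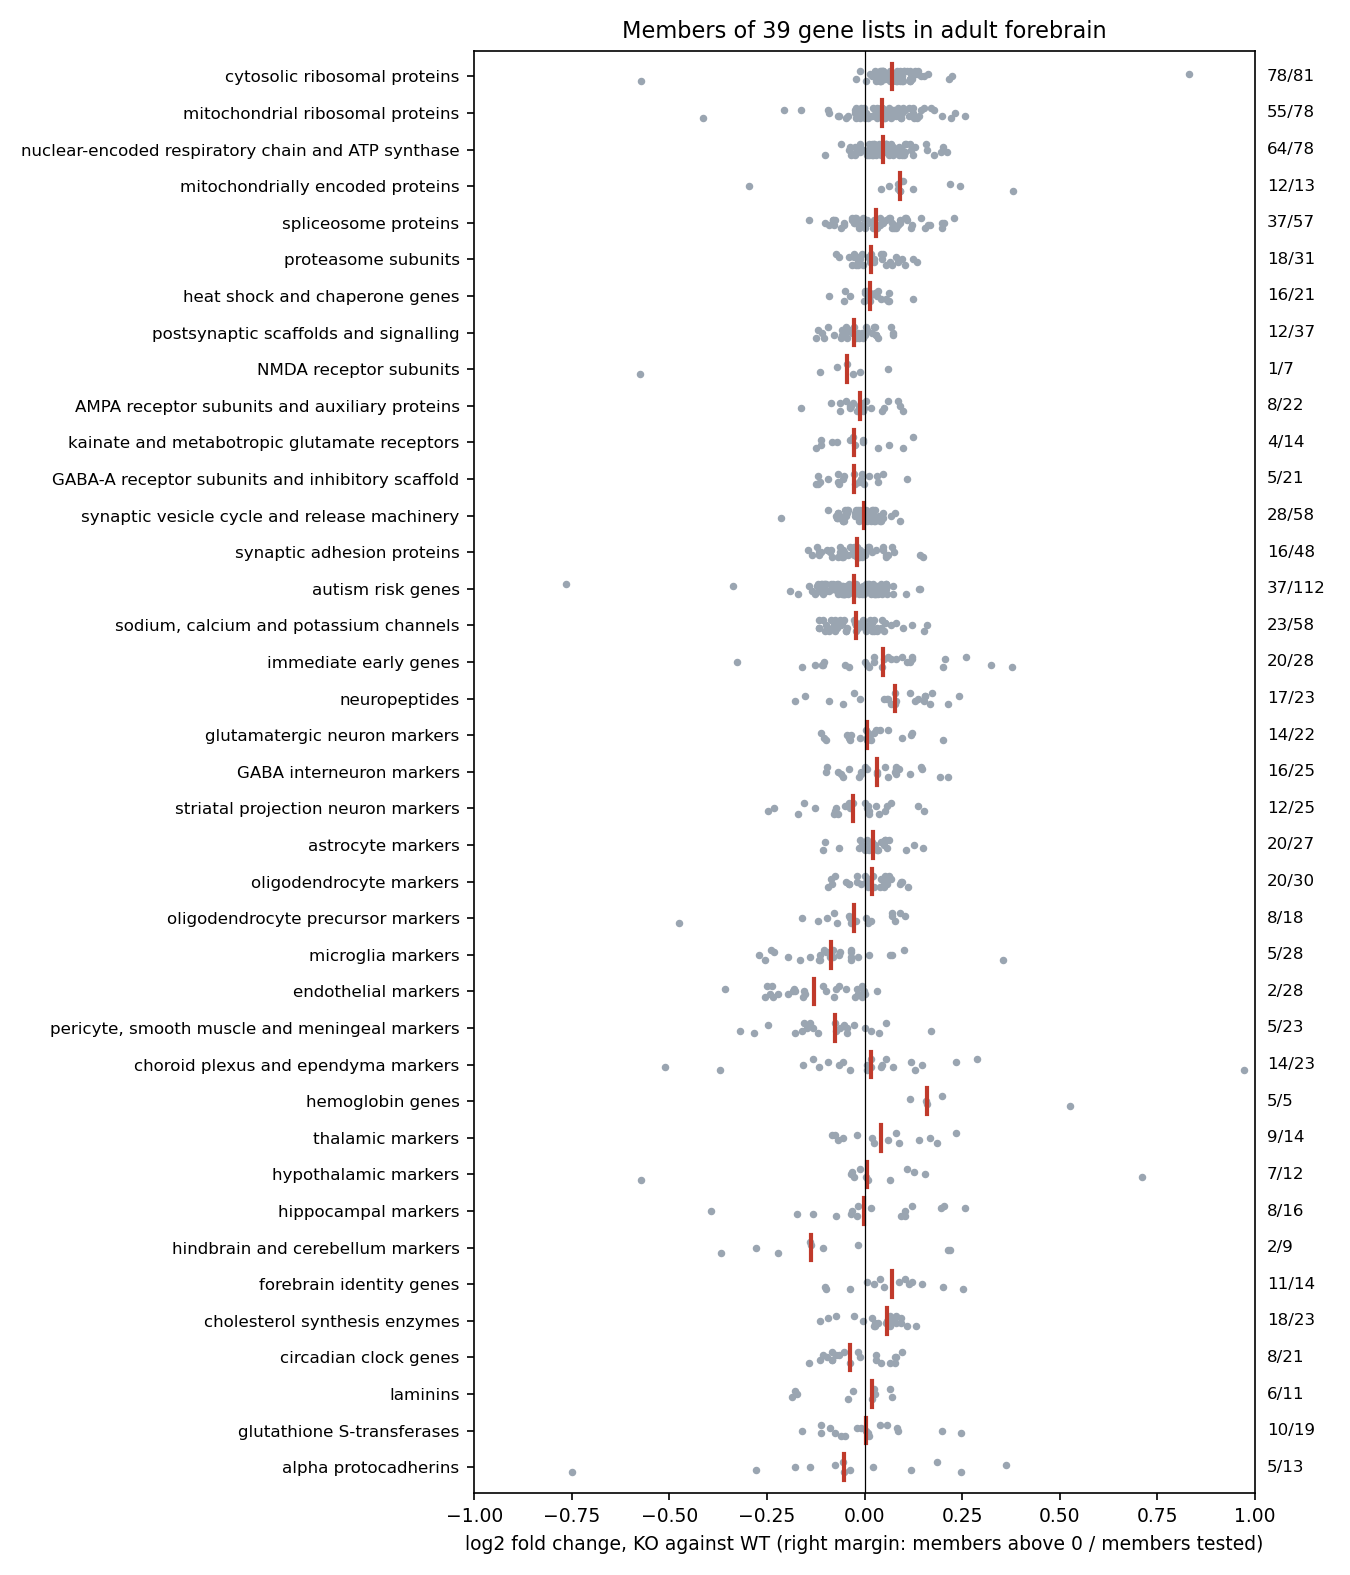
Log2 fold change (KO against WT, x axis) of each tested member (grey points) of the 39 gene lists (y axis), with the list's median in red and the number of members above 0 out of those tested at the right. The axis ends at -1 and 1 and 2 members lie beyond it, Gstp2 and Lamb3. Ribosomal and respiratory lists lie mostly right of 0 and endothelial and microglial markers mostly left, all by small amounts.

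Protein synthesis and energy metabolism genes leaned to higher values in KO. Of the 81 cytosolic ribosomal protein genes, 78 were above 0 with a median of 0.07, and 6 were higher and 1, Rpl10, lower without overlap, together 8.64% beside 7.79% of all genes tested. Rpl35 and Rps19, components of the large and the small subunit, were at 0.22 and 0.14. Mitochondrial ribosomal proteins had 55 of 78 above 0, a median of 0.04, and 9 higher and 3 lower without overlap (15.4%). Of these, Mrpl53 had 454, 464 and 465 in KO and 393, 392 and 392 in WT, the tightest separation among those named, with a log2 fold change of 0.23 ± 0.08 (SE, unadjusted p = 0.0144, limma). Of its 31-base words, 84.4% also occur in another gene record, Gm42688.

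Nuclear-encoded respiratory chain and ATP synthase genes had 64 of 78 above 0 and a median of 0.05, with 6 higher and 0 lower without overlap, together 7.69% beside 7.79% of all genes tested. Ndufs5, an accessory subunit of complex I, had 1909, 1863 and 1737 in KO and 1633, 1635 and 1596 in WT, and Ndufb2, another accessory subunit of complex I, was at 0.21 ± 0.08 (SE). Of the 13 proteins encoded by mitochondrial DNA, 12 were above 0 with a median of 0.09, and 4 were higher without overlap. mt-Atp6, a proton channel subunit of ATP synthase, had 43142, 43754 and 42108 in KO and 38209, 27001 and 34914 in WT, and mt-Nd2 had 109931, 99523 and 103578 in KO and 96800, 94010 and 96148 in WT. The exception was mt-Nd4l at -0.30 ± 0.18 (SE). The values of mt-Atp6 and mt-Nd4l are uncertain, since 99.5% and 98.9% of their 31-base words also occur in other gene records, Gm10925 and Gm10222, while 13.5% of those of mt-Nd2 do.

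In the lists whose library levels follow, these shifts were no larger than the differences between mice of 1 genotype. A list level per library was taken as the mean log2 difference of the members from their mean over the 6 libraries. For cytosolic ribosomal proteins it was 0.12, 0.043 and -0.048 in KO and -0.0093, -0.018 and -0.090 in WT. KO replicate 3 thus lay below WT replicates 1 and 2. For the nuclear-encoded respiratory list it was 0.065, 0.056 and -0.043 in KO and 0.0046, -0.023 and -0.059 in WT, again with KO replicate 3 among the WT libraries. For proteins encoded by mitochondrial DNA, 0.20 in KO replicate 1 stood apart from 0.013 and -0.063 in the other KO libraries. Without KO replicate 1 the medians of the cytosolic ribosomal, mitochondrial ribosomal, nuclear-encoded respiratory and mitochondrially encoded lists were 0.037, 0.020, 0.024 and 0.038, and without KO replicate 3 they were 0.11, 0.070, 0.085 and 0.14. Spliceosome proteins had 37 of 57 above 0 with a median of 0.03, and 5 higher and 2 lower without overlap (12.3%). Proteasome subunits had 18 of 31 above 0 with a median of 0.02, and 2 higher and 0 lower without overlap. Heat shock and chaperone genes had 16 of 21 above 0 with a median of 0.01, and 0 without overlap.

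**Figure D5:**
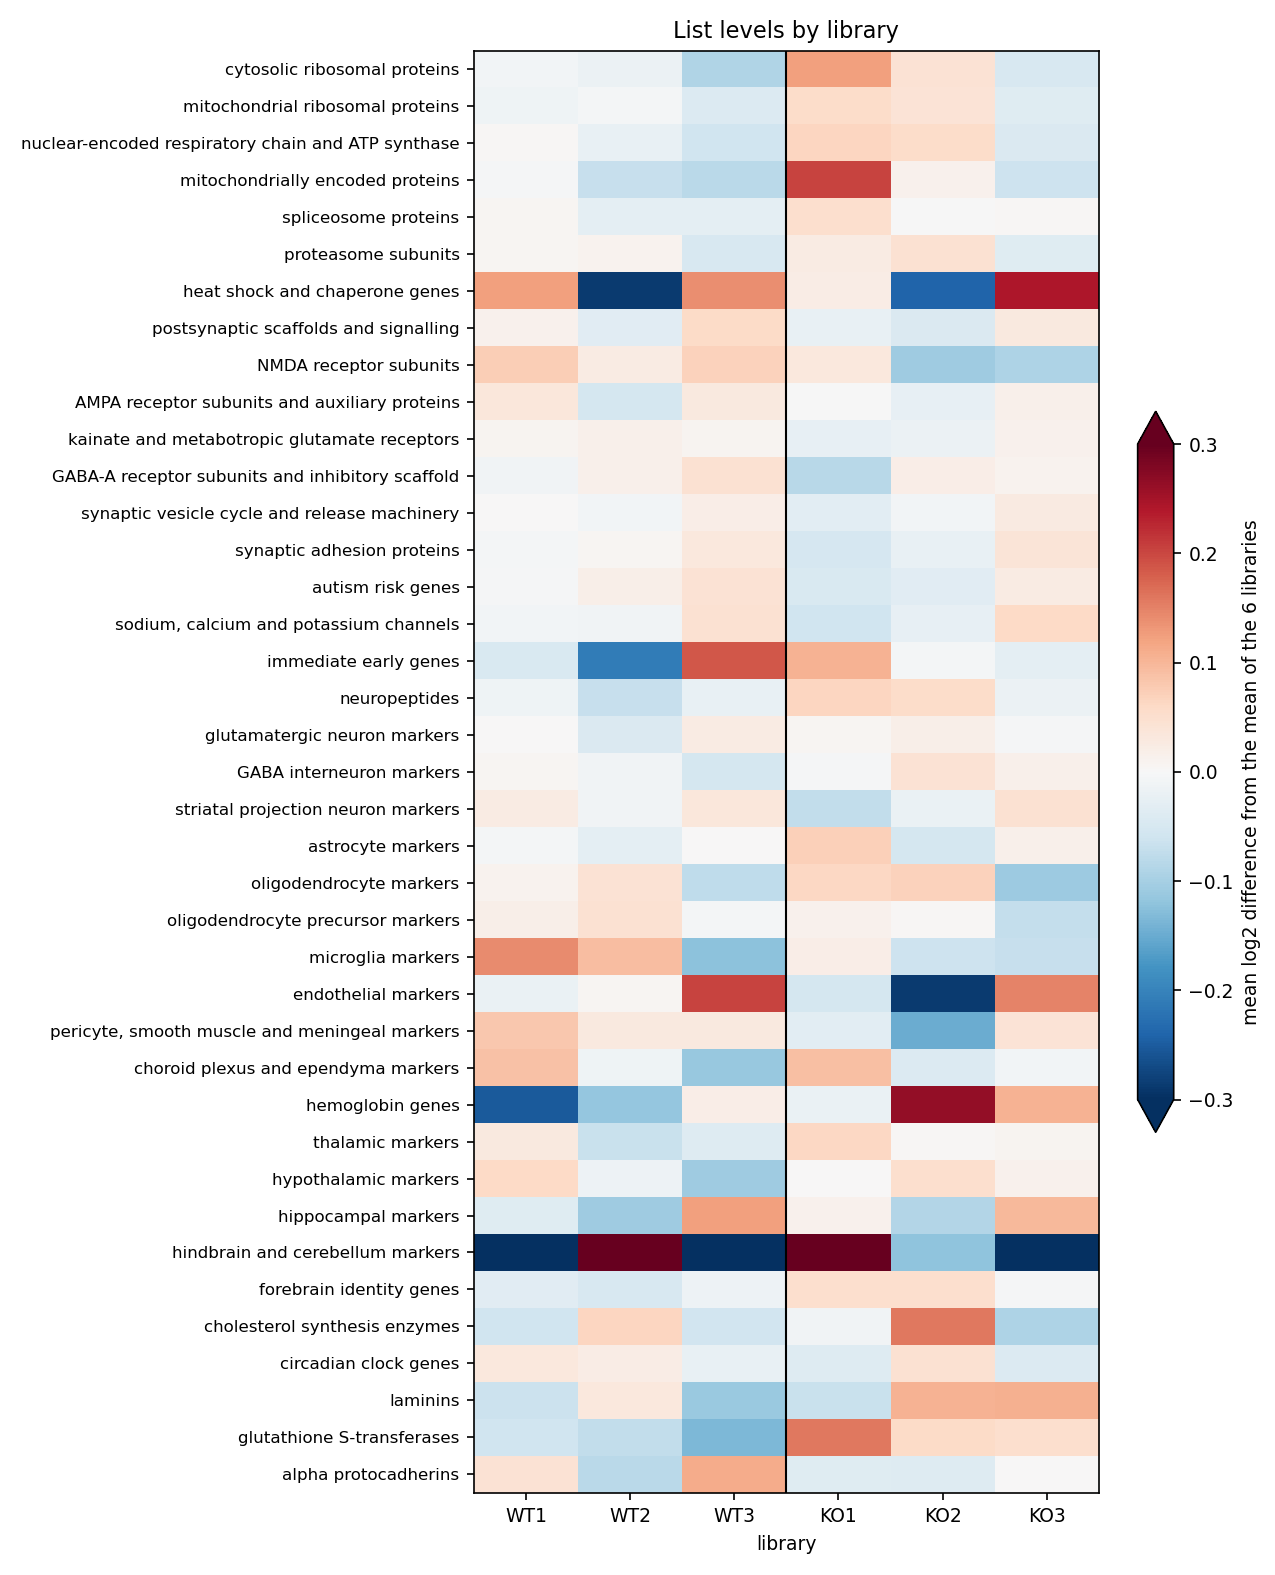
List levels by library: each cell is the mean log2 difference of a list's tested members (rows) from their mean over the 6 libraries, in WT (left 3 columns) and KO (right 3 columns) libraries, from blue (-0.3 and below) to red (0.3 and above). Heat shock genes were low in replicate 2 of both genotypes, hindbrain markers were high in WT2 and KO1, and only 2 of the 39 lists had no overlap between the genotypes.

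Synaptic genes showed small shifts, with list medians mostly below 0 and members without overlap in both directions. Postsynaptic scaffolds and signalling proteins, without Shank3, had 12 of 37 above 0 and a median of -0.03, with 1 higher and 2 lower without overlap, together 8.11% beside 7.79% of all genes tested. Dlg4, which encodes PSD-95, the central scaffold of the postsynaptic density, had 22366, 21750 and 22137 in KO and 21593, 20240 and 21218 in WT, a log2 fold change of 0.07 ± 0.04 (SE). The Rac pathway adaptor Abi2 was at -0.13 ± 0.06 (SE).

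Among glutamate receptors, 1 of 7 NMDA receptor subunit genes was above 0, the median was -0.04 and 0 were without overlap. Grin1, the obligatory subunit, was at -0.01 ± 0.04 (SE), with 17716, 18589 and 17957 in KO and 17830, 18984 and 17900 in WT, which overlap. Grin2b, the subunit that dominates early in development, had 15947, 16088 and 21142 in KO and 18861, 17540 and 20792 in WT, with a log2 fold change of -0.11 ± 0.11 (SE). AMPA receptor subunits and auxiliary proteins had 8 of 22 above 0 and a median of -0.01, yet the members without overlap were 2 higher and 0 lower in KO. Kainate and metabotropic receptors had 4 of 14 above 0, a median of -0.03 and 0 without overlap. Neto2, an auxiliary subunit of kainate receptors, and Grm5, which encodes mGluR5, a receptor joined to Shank3 through Homer, were at -0.12 ± 0.08 (SE) and -0.11 ± 0.08 (SE).

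On the inhibitory side, 5 of 21 GABA-A receptor and scaffold genes were above 0 with a median of -0.03, and 1 was higher and 3 lower without overlap, which is 4 genes (19.0%) beside 7.79% of all genes tested. Gabrd, the delta subunit of extrasynaptic receptors, had 1595, 1598 and 1633 in KO and 1752, 1772 and 1737 in WT. The groups were tight and apart, with a log2 fold change of -0.12 ± 0.05 (SE, unadjusted p = 0.0384, limma). Synaptic vesicle and release genes were even about 0, with 28 of 58 above it, a median of -0.00031, and 0 higher and 1 lower without overlap. Synaptic adhesion proteins had 16 of 48 above 0 and a median of -0.02, while 2 were higher and 1 lower without overlap (6.25%), and 2 higher and 0 lower at an unadjusted p under 0.05. Among them Cntnap2, a neurexin-related protein of the juxtaparanode and an autism risk gene, had 4384, 4584 and 4509 in KO and 3997, 4354 and 3883 in WT.

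Of 112 autism risk genes, none of them Shank3, 37 were above 0 and the median was -0.03, with 2 higher and 5 lower without overlap (6.25% of the list in all, beside 7.79% of all genes tested). The transcription factor Foxp1 had 2634, 2802 and 2990 in KO and 3106, 3071 and 3300 in WT, and the histone demethylase Kdm6b had 1446, 1488 and 1399 in KO and 1772, 1511 and 1674 in WT. Their log2 fold changes were -0.17 ± 0.06 (SE) and -0.19 ± 0.07 (SE), and neither passed the adjusted threshold. Sodium, calcium and potassium channel genes had 23 of 58 above 0, a median of -0.02 and 0 without overlap in either direction. Cacna1g, a T-type calcium channel, and Scn1a, a sodium channel prominent in interneurons, were at 0.15 ± 0.06 (SE) and -0.12 ± 0.06 (SE).

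Neuropeptides leaned to higher values, with 17 of 23 above 0, a median of 0.08, and 5 higher and 0 lower without overlap (21.7% beside 7.79% of all genes tested). Beside Sst, Pdyn, the dynorphin precursor of direct-pathway striatal neurons, had 887, 880 and 920 in KO and 818, 798 and 800 in WT. Its groups were apart by more than the spread within either, with a log2 fold change of 0.15 ± 0.06 (SE, unadjusted p = 0.0363, limma). The 3 others without overlap were Tac1, Nts and Penk, at 0.14, 0.24 and 0.06, where Nts and Penk were named after their values were seen. The list level was 0.065, 0.056 and -0.017 in KO and -0.012, -0.070 and -0.022 in WT, so KO replicate 3 lay between WT libraries.

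Immediate early genes, which neurons switch on with activity, had 20 of 28 above 0, a median of 0.05 and 0 without overlap. Fos had 1103, 1111 and 1031 in KO and 672, 753 and 1138 in WT, so 1 WT library was above all KO libraries. The list level spanned -0.21 to 0.19 within WT, more than the whole range of -0.028 to 0.10 in KO. Without WT replicate 2 the median turned to -0.06.

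Cell type markers of neurons and macroglia had list medians close to 0. Glutamatergic neuron markers had 14 of 22 above 0, a median of 0.0073, and 1 higher and 0 lower without overlap. GABA interneuron markers had 16 of 25 above 0, a median of 0.03, and 1 higher and 1 lower without overlap. Striatal projection neuron markers had 12 of 25 above 0 and a median of -0.03, but 3 higher and 2 lower without overlap (20% beside 7.79% of all genes tested), and 2 higher and 2 lower at an unadjusted p under 0.05. The 3 higher were Pdyn, Tac1 and Penk and the 2 lower Foxp1 and Arpp21, a cyclic AMP-regulated phosphoprotein named after its values were seen. Drd1, the dopamine receptor of direct-pathway neurons, had 853, 944 and 955 in KO and 1086, 940 and 1225 in WT, and Tac1, a peptide of the same neurons, had 1204, 1201 and 1234 in KO and 1145, 1055 and 1111 in WT. The markers of 1 cell type thus lay on both sides of 0. Astrocyte markers had 20 of 27 above 0 with a median of 0.02, and 1 higher and 0 lower without overlap. Gfap, the astrocyte intermediate filament, had 5677, 5528 and 5556 in KO and 5120, 5039 and 5412 in WT. Oligodendrocyte markers had 20 of 30 above 0 with a median of 0.02, and oligodendrocyte precursor markers 8 of 18 with a median of -0.03, each with 0 without overlap.

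Microglial and vascular markers were mostly lower in KO, by small amounts. Of 28 microglia markers 5 were above 0 with a median of -0.08, and 1 was higher and 3 lower without overlap (14.3% beside 7.79% of all genes tested). Itgam, the integrin CD11b, had 408, 437 and 402 in KO and 496, 467 and 465 in WT, and Fcer1g, the Fc receptor gamma chain, went the opposite way with 148, 160 and 148 in KO and 121, 118 and 117 in WT. Of the 31-base words of Itgam, 67.2% also occur in another gene record, Gm49368. The list level was 0.020, -0.062 and -0.069 in KO and 0.14, 0.092 and -0.12 in WT, so WT replicate 3 was the lowest of the 6 libraries. Without WT replicate 1 the median was -0.016, and without WT replicate 3 it was -0.16.

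Endothelial markers had 2 of 28 above 0 and a median of -0.13, larger than in the other neural, glial and vascular lists, with 0 higher and 1, the junction protein Cdh5, lower without overlap. Cdh5 had 361, 317 and 403 in KO and 410, 409 and 469 in WT. Summed over the 28 markers the level was 23297, 20735 and 27280 in KO and 24174, 25306 and 28277 in WT, with KO replicate 2 the lowest, and without that library the median was -0.032. Without KO replicate 3 or WT replicate 3 it was -0.23 or -0.050. Markers of pericytes, smooth muscle and meninges had 5 of 23 above 0 and a median of -0.08, with 3 lower without overlap, among them Vtn, vitronectin of brain pericytes, at -0.18 ± 0.07 (SE).

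Blood genes had higher values in KO, and none was a DEG. All 5 hemoglobin and erythroid genes were above 0 with a median of 0.16, and 3 did not overlap. Summed, they were 6505, 7305 and 6804 in KO and 5968, 5894 and 6410 in WT, so the sums of the genotypes did not overlap. The list level, which weights the 5 genes equally, was -0.019, 0.26 and 0.10 in KO and -0.25, -0.12 and 0.021 in WT, and it did overlap, with KO replicate 1 below WT replicate 3. Hbb-bs, an adult beta globin, had 2436, 2733 and 2417 in KO and 2300, 2202 and 2279 in WT, and its 31-base words are shared with Hbb-bt to 54.4%. The endothelial sum and the blood sum did not go together in KO replicate 2, which had the lowest endothelial and the highest blood level. How much blood was left in each tissue was not tested.

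Of the 39 list levels, 2 did not overlap between genotypes. Glutathione S-transferases were at 0.16, 0.057 and 0.051 in KO and -0.059, -0.073 and -0.13 in WT, while their median log2 fold change was 0.0046, 10 of 19 were above 0, and 2 were higher and 0 lower without overlap. Without Gstp2 the level of the other 18 was 0.057, 0.0092 and -0.063 in KO and 0.0061, 0.049 and -0.059 in WT, which overlap. Forebrain identity genes were at 0.050, 0.052 and -0.0037 in KO and -0.034, -0.049 and -0.015 in WT, with 11 of 14 above 0, a median of 0.07, and 2 higher and 0 lower without overlap. Otx1 and Emx1, transcription factors of the cortex, were at 0.25 ± 0.11 (SE) and 0.20 ± 0.11 (SE). WT replicate 2, the library with the highest cerebellar markers, had the lowest forebrain identity level, and without it and KO replicate 1 the median was 0.02. Its part in the result was not tested beyond this.

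Markers of other regions were spread about 0 apart from the cerebellum. Thalamic markers had 9 of 14 above 0 and a median of 0.04, with 1 higher and 0 lower without overlap. Hypothalamic markers had 7 of 12 above 0 and a median of 0.0069, and hippocampal markers 8 of 16 and -0.0006, each with 1 higher and 1 lower without overlap. Choroid plexus and ependyma markers had 14 of 23 above 0 and a median of 0.02, with 1 higher and 0 lower without overlap, and the hindbrain and cerebellum markers 2 of 9 and -0.14, with 0 higher and 1 lower. Sim1, a hypothalamic transcription factor, had 27.7, 17.8 and 28.5 in KO and 35.4, 40.1 and 33.9 in WT. Cholesterol synthesis enzymes had 18 of 23 above 0 with a median of 0.06 and 0 without overlap, and without KO replicate 2 the median was -0.004. Circadian clock genes had 8 of 21 above 0 with a median of -0.04 and 0 without overlap.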

How the data were processed

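The authors quantified reads with Salmon and normalised the imported estimates with DESeq2, per the study's methods. The submitters' notes name Salmon 1.1.0, R 3.6.2, DESeq2 1.26.0 and GRCm38. The deposited values are signal on a normalised count scale over all 12 libraries, not whole reads, so no count model was fitted and the depth behind a value is unknown. Annotation release and strand setting are not given in the sources used here, so overlapping and antisense genes are uncertain. An exact 0, found for 211 genes in at least 1 of the 6 libraries, may be a failed estimate.

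Genes were annotated with GENCODE M21 (19252 of 19268 matched). Log2(value + 1) was fitted with limma 3.58.1 in R 4.3.3 (lmFit, eBayes with intensity trend) on the 6 P60 libraries. The procedure was tested on simulated data. Read sharing was measured with 31-base words. Intervals use limma's SE and 9.29 degrees of freedom, of which 4 come from the gene's own libraries and 5.29 from the other genes.

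The genes named were Shank3, Shank1 and Shank2, genes the study names for P60 with Gstp2, the 10 protein-coding genes per direction with the smallest p (identifier-like symbols passed over), up to 2 members per list and direction with the smallest p, the 3 nearest tested genes on each side of Shank3, and forebrain and other-region markers. A few of the genes so chosen are not reported here. Members and lists were chosen with earlier results of these data known. Alternatives changed the pseudocount, minimum mean, scaling, variance model and block, or left out libraries.

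Same-numbered KO and WT libraries had correlated deviations of 0.069, 0.17 and 0.12, and as not all were above 0.1 the numbers were not taken to pair mice.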

Additional observations from a re-analysis of the deposited data

How the results depend on the processing

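Shank3 kept its direction in all 18 alternatives, with log2 fold changes from -1.10 to -0.94, and its call in all of them except the fit with no intensity trend, where its log2 fold change was -0.99 (adjusted p = 0.185 by limma) and 0 genes were DEGs (618 at an unadjusted p under 0.05). Leaving out 1 library at a time gave 1 to 3 DEGs, log2 fold changes of Shank3 from -1.06 to -0.94 with adjusted p from 0.0016 to 0.0228 by limma, and 320 to 834 genes at an unadjusted p under 0.05, the highest without KO replicate 3. Without KO replicate 1 the DEGs were 3, with Fam205a2 and Gm9531 added, and without WT replicate 1 they were 2, with Gm28048 added. Without both KO replicate 1 and WT replicate 2, an alternative chosen after seeing the data, they were also 3, and without both libraries numbered 2, likewise chosen then, Shank3 was the 1 DEG. Sample quality weights gave 675 genes at an unadjusted p under 0.05. With the replicate number as a block there were 1017, Shank3 was the 1 DEG (adjusted p = 4.19e-05 by limma), and the deviation of every library from its group mean correlated best, among the libraries of the other genotype, with that of its own number, a hint from the data and not from the design.

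Among 61 named genes recomputed under the alternatives, direction held in 1055 of 1079 cases and turned in 24. A gene whose groups do not overlap keeps its direction whichever libraries are left out. For genes named for a small p in these libraries, holding was thus partly fixed by the choice. The cases that turned belong to 9 genes that are given here. Summed with Rpl10-ps3, Rpl10 was at 0.073. With sample weights C230037L18Rik was at -0.029, with the length and GC trend removed Gstp1 was at -0.0087, and after quantile normalization Shank1 was at 0.0046. Leaving out libraries gave -0.37 to 0.18 for Acr, -0.047 to 0.024 for Arsa, -0.16 to 0.20 for C230037L18Rik, -0.020 to 0.042 for Gstp1, -0.30 to 0.073 for the second Pcdha11 record, -0.21 to 0.061 for Rabl2, -0.12 to 0.047 for Shank1 and -0.19 to 0.072 for Shank2. Of 40 list medians, that of the genes near Shank3 included, 22 kept their sign in every alternative, among them the ribosomal, respiratory, neuropeptide, autism risk, microglial and endothelial lists. With 3 libraries per group, the median gene had a 95% interval of 0.23 log2 units on either side.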

Other observations

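A group of chaperone genes of the endoplasmic reticulum differed between libraries across both genotypes. It was assembled after the values were seen, with 12 members. Hspa5, the chaperone BiP, had 10654, 5656 and 12172 normalised counts in KO replicates 1, 2 and 3 and 12066, 5493 and 10773 in WT replicates 1, 2 and 3. In 11 of the 12 genes the lowest and the second lowest values were those of replicate 2 of the KO and of the WT mice, and Dnajb9 was the exception. None of the 12 passed the test between the genotypes, and the log2 fold change of Hspa5 was 0.01 ± 0.32 (SE). Sdf2l1, an induced partner of BiP, had 531, 264 and 550 in KO and 578, 199 and 516 in WT, and Creld2, which lies within 1 Mb of Shank3, had 566, 318 and 592 in KO and 574, 281 and 506 in WT. The labels give no batch or dissection note for the libraries numbered 2, and the source of the shared low values was not tested.

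Cerebellar genes set WT replicate 2 and KO replicate 1 apart in the same way within their groups. Cbln3, a cerebellin of granule cells, had 138, 27.5 and 10.8 in KO and 14.3, 624 and 9.42 in WT, and Pcp2, a Purkinje cell protein, had 86.0, 19.2 and 10.1 in KO and 6.69, 244 and 5.53 in WT. The highest value in each genotype was in these libraries for both genes.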
